A study of Homo sapiens with 12 samples.

Results

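The AP-1 and immediate early factors described here are 10 genes, taken from the deposited gene table by their symbols: *JUN*, *JUNB*, *JUND*, *FOS*, *FOSB*, *FOSL1*, *FOSL2*, *ATF3*, *EGR1* and *IER2*. The set was chosen with earlier results of these data known, so its counts beside all genes are not those of an unselected set. All 10 were found among the 59276 genes of the table. They were followed in JJN3, a human multiple myeloma cell line, by RNA sequencing of total RNA from 12 samples in 4 groups of 3. DMSO and MS023 were parental JJN3 cells given the vehicle or 10 µM MS023 for 3 days; MS023 is an inhibitor of type I protein arginine methyltransferases (PRMTs), of which PRMT1 is the main enzyme, and it is not selective for PRMT1. The isgCtrl and PRMT1-KO (iPRMT1_1) cells were JJN3 cells that carried a Cas9 and mCherry lentivirus, had been sorted for mCherry, and carried a doxycycline-inducible guide vector selected with puromycin, with a control guide or a guide to *PRMT1*; both were given doxycycline for 3 days. PRMT1-KO therefore stands for 1 guide in 1 selected line, and whether that line was clonal is not given in the sources used here.

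JUN and FOS proteins belong to the bZIP family, whose members pair through a leucine zipper and bind DNA as dimers called AP-1. JUN proteins can pair with each other and with FOS proteins, whereas FOS proteins need a JUN partner, and ATF3 is a related bZIP protein that often acts as a repressor. *FOS*, *FOSB*, *JUN*, *JUNB*, *ATF3*, *EGR1* and *IER2* are classical immediate early genes, which mitogens and stress switch on within minutes through kinases and factors already present in the cell, and whose RNAs are mostly short-lived. EGR1 is a zinc finger activator outside the bZIP family, and IER2 is a small nuclear protein. In myeloma, MAF proteins, which are also bZIP factors, are known drivers in some tumors.

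The labels were checked before the members were compared. *PRMT1* had 302, 309 and 301 TPM (a level scaled to transcript length and to a fixed total per sample) in the PRMT1-KO samples and 867, 863 and 849 TPM in the isgCtrl samples, so that RNA of the targeted gene remained at 35.4% of isgCtrl (log2 difference -1.50, limma adjusted p = 7.2e-04). RNA does not measure the protein, for which the paper shows a western blot and describes efficient deletion. Under MS023 *PRMT1* RNA was 673 TPM against 653 TPM in DMSO, a difference within the spread of the samples. Replicates within a group correlated at r = 0.992 to 0.995 across genes, and nothing in the labels says whether they came from separate cultures, so the p-values measure the spread between these samples, which may be technical. The summed level of 9 plasma cell markers was 5423 to 5667 TPM in DMSO, 11542 to 11912 TPM with MS023, 2600 to 2664 TPM in isgCtrl and 2806 to 2989 TPM in PRMT1-KO, led in each group by *JCHAIN*. *SLAMF7* was at 0.369 TPM in isgCtrl and 0.463 TPM in PRMT1-KO against 9.32 TPM in DMSO and 52.2 TPM with MS023. *MZB1* was at 105 TPM in DMSO, 178 TPM with MS023, 2.01 TPM in isgCtrl and 1.01 TPM in PRMT1-KO. The markers did not all move alike. With MS023 5 of the 9 were called higher and 1, *CD38*, lower (-0.88), where 11.6% and 19.3% of all genes were. In isgCtrl against DMSO 4 were called lower and 1, *IRF4*, higher (0.72), where 6.7% and 7.23% of all genes were. Of the 4, *SLAMF7* passed the filter only through DMSO, where it was the higher. The 5 T cell markers summed to 0.135 to 0.753 TPM with *CD3G* at 0 throughout, and the 4 myeloid markers to 0.0761 to 3.08 TPM. The 5 stromal and red cell markers, led by *HBA1* in each group, summed to 5.32 to 7.95 TPM in DMSO, 6.22 to 13.6 TPM with MS023, 13.9 to 27.0 TPM in isgCtrl and 10.3 to 14.3 TPM in PRMT1-KO, so that isgCtrl lay above DMSO without overlap. *HBA1* was called higher in isgCtrl than in DMSO (1.56, limma adjusted p = 0.0029), and *COL1A1*, a collagen chain, was called higher with MS023 than in DMSO (0.68), having passed the filter only through MS023. The share of TPM from mitochondrial genes was 4.96% in DMSO, 5.71% with MS023, 4.31% in isgCtrl and 4.05% in PRMT1-KO. The part of these shifts in the differences below was not tested, and in RNA from a bulk culture fewer cells with a transcript and less RNA per cell cannot be told apart.

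Shown are the promoters of the 4 members that rose with MS023 (*FOS*, *JUNB*, *JUND* and *IER2*) and of *EGR1*, the tested member that differed most between the 2 control groups. *FOS* and *IER2* were also called higher in isgCtrl than in DMSO. These promoters were chosen by those differences, and whether their sites have a part in the differences was not tested. Each is the stretch of 250 bases before the annotated start, from RefSeq (GRCh38.p14): *FOS* at chr14:75278578-75278827 (plus strand), *JUNB* at chr19:12791236-12791485 (plus), *JUND* at chr19:18281623-18281872 (minus), *IER2* at chr19:13150161-13150410 (plus) and *EGR1* at chr5:138465229-138465478 (plus). Capitals mark matches, on either strand, to the core of the cAMP response element (TGACG, or CGTCA on the other strand), the whole element (TGACGTCA, which contains that core in both directions), the TATA box (TATAAA), the CCAAT box (CCAAT or ATTGG), the ETS core (CCGGAA or TTCCGG) and the CArG box, the site of serum response factor.
FOS: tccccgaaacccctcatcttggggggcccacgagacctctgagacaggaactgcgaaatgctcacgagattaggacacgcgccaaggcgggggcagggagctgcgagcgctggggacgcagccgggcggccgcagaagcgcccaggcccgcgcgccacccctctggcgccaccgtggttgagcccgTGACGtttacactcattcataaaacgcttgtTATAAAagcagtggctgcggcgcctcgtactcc
JUNB: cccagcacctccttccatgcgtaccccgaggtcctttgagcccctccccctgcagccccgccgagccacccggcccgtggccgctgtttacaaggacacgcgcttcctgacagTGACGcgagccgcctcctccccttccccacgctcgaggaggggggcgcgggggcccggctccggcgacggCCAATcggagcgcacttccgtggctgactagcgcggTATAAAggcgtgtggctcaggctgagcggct
JUND: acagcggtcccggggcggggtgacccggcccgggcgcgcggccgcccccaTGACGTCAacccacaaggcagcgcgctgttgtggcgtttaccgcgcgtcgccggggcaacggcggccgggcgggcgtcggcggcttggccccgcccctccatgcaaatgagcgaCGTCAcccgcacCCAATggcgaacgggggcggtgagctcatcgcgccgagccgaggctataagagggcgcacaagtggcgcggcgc
IER2: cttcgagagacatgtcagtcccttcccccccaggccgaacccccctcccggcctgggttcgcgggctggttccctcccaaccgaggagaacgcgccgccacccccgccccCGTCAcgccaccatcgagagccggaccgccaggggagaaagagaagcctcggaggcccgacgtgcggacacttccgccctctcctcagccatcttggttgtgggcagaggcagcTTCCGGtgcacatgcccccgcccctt
EGR1: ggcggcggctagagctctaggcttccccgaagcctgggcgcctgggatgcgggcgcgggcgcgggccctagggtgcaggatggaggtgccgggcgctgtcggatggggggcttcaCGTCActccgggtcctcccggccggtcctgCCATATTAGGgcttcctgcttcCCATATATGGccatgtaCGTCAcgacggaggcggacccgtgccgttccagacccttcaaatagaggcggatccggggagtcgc

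The motif search covered 9 of the 10 members, since *FOSL1* had no entry, and *ATF3* was searched at 2 annotated starts. The TGACG core stood in 8 of the 9 (all but *ATF3*), against 21.2% of 35116 RefSeq promoters of the same length, and was added to the search after the promoters had been viewed. In *FOS* it lay 64 to 60 bases before the start, with a TATA box 33 to 28 bases before it; in *JUNB* the core was at 137 to 133, a CCAAT box at 67 to 63 and a TATA box at 31 to 26. The full element TGACGTCA was found in *JUND* alone, 200 to 193 bases before the start (1.65% of all promoters). Within the searched stretch *EGR1* was the only one of the 9 members with a match to the CArG box (1.16% of all promoters). It held the match at 105 to 96 and again at 83 to 74 bases before the start. Sequence outside that stretch was not searched, so a CArG box of *FOS* or another member lying there would have been missed. *IER2* had an ETS core at 26 to 21 bases, which *FOSB* also held further upstream (14.5% of all promoters). Matches to TATAAA were in *FOS*, *FOSB*, *JUNB* and *ATF3* (10.7% of all promoters) and CCAAT boxes in *JUN*, *JUNB*, *JUND* and *ATF3* (32.0%). In *FOSB* TATAAA lay 30 to 25 bases before the start, but in *ATF3* it lay 230 to 225 bases before 1 of its 2 starts. The variant TGACATCA, also added after viewing, was in *JUN* and *ATF3* (2.37%). The AP-1 site TGACTCA (4.2% of all promoters) and the EGR sites GCGGGGGCG (4.72%) and GCGTGGGCG (0.72%) were in no member's window, which says only that these letters are not there. These matches are descriptions of sequence, and binding was not measured.

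The levels below are log2(TPM+1) as deposited, a scale on which TPM already accounts for transcript length, so that genes can be set side by side. In every group *JUNB* and *JUND* had the highest mean levels and *IER2* the next. In DMSO *ATF3* and *JUN* followed, with samples that overlapped each other, then *FOSL1* and *EGR1*, and then *FOS*, *FOSL2* and *FOSB*, whose neighbors overlapped. With MS023, *FOS* stood above *EGR1* with no overlap, the opposite of their order in DMSO. In isgCtrl and PRMT1-KO *EGR1* came next below *JUN*, and its samples overlapped those of *JUN* in PRMT1-KO. *ATF3* came below *FOS* in PRMT1-KO, with overlap, and *JUND* and *IER2* also overlapped each other there.

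Among the JUN genes, *JUNB* (chr19:12791486-12793315, plus strand, 1 exon) encodes a JUN protein that is a weaker activator than JUN in many settings. Its levels were 5.79, 5.92 and 5.82 in DMSO, 6.54, 6.65 and 6.56 with MS023, 6.23, 6.27 and 6.24 in isgCtrl and 6.21, 6.21 and 6.17 in PRMT1-KO. Every MS023 sample lay above every other sample, every DMSO sample lay below every other sample, and the 2 Cas9 groups lay between, close to each other. *JUND* (chr19:18279694-18281622, minus strand, 1 exon) encodes the JUN protein that is present in most resting cells. Its levels were 5.36, 5.66 and 5.46 in DMSO, 6.14, 6.22 and 6.24 with MS023, 5.77, 5.79 and 5.87 in isgCtrl and 5.57, 5.59 and 5.53 in PRMT1-KO. MS023 was again highest without overlap, isgCtrl came next, and PRMT1-KO lay within the range of DMSO. *JUN* (chr1:58776845-58784048, minus strand, 1 exon), the founding member and the one most tied to stress kinases of the JNK group, was much lower than both. It measured 3.21, 3.35 and 3.02 in DMSO, 3.48, 3.49 and 3.63 with MS023, 3.31, 3.22 and 3.27 in isgCtrl and 3.17, 2.75 and 2.91 in PRMT1-KO. Each MS023 sample was above each DMSO sample, and each PRMT1-KO sample was below each isgCtrl sample.

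Among the FOS genes, *FOS* (chr14:75278826-75282230, plus strand, 4 exons) is the textbook immediate early gene. It measured 1.22, 1.17 and 0.93 in DMSO, 1.98, 2.18 and 2.13 with MS023, 1.98, 1.46 and 1.64 in isgCtrl and 1.66, 1.62 and 1.72 in PRMT1-KO. DMSO was below all other groups, and the isgCtrl samples spread across the whole range of the PRMT1-KO samples. *FOSL1* (chr11:65892049-65900573, minus strand, 4 exons), which encodes FRA1, a FOS protein without the C-terminal activation domain of FOS, measured 2.12, 1.94 and 1.95 in DMSO, 2.47, 2.21 and 2.21 with MS023, 2.25, 2.41 and 2.28 in isgCtrl and 2.42, 2.50 and 2.56 in PRMT1-KO. DMSO was lowest without overlap, and the lowest PRMT1-KO sample lay just above the highest isgCtrl sample. *FOSL2* (chr2:28392448-28417317, plus strand, 4 exons), which encodes FRA2, was at 1.01, 0.73 and 0.78 in DMSO, 1.03, 0.99 and 1.24 with MS023, 0.55, 0.57 and 0.49 in isgCtrl and 0.46, 0.78 and 0.46 in PRMT1-KO. *FOSB* (chr19:45467995-45475179, plus strand, 4 exons) was at 0.54, 0.52 and 1.17 in DMSO, 0.29, 0.30 and 0.46 with MS023, 0.65, 0.31 and 0.45 in isgCtrl and 0.90, 0.37 and 0.41 in PRMT1-KO. Both genes were near or under 1 TPM. *FOSL2* was lower in every isgCtrl sample than in DMSO, its MS023 and DMSO samples overlapped, and *FOSB* in the third DMSO sample stood apart from the other DMSO samples.

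*ATF3* (chr1:212565334-212620777, plus strand, 4 exons), a stress-induced bZIP gene and a target of the integrated stress response, measured 3.50, 3.44 and 2.87 in DMSO, 3.55, 3.18 and 3.84 with MS023, 2.51, 2.71 and 2.01 in isgCtrl and 1.76, 1.04 and 1.38 in PRMT1-KO. DMSO and MS023 overlapped, isgCtrl lay below both, and PRMT1-KO lay below isgCtrl in every sample. *ATF3* also had an SD of 0.33 to 0.36 in every group, the widest of the members there with the exception of *FOSB* in DMSO (SD 0.37). *EGR1* (chr5:138465479-138469303, plus strand, 2 exons) measured 1.65, 1.68 and 1.57 in DMSO, 1.63, 1.65 and 1.66 with MS023, 3.21, 3.17 and 3.18 in isgCtrl and 2.71, 2.89 and 2.78 in PRMT1-KO. Its values fell into a low pair of groups and a high pair with no sample between them, and PRMT1-KO was the lower of the high pair. *IER2* (chr19:13150411-13154911, plus strand, 2 exons) measured 4.77, 5.08 and 4.81 in DMSO, 5.61, 5.63 and 5.52 with MS023, 5.57, 5.55 and 5.55 in isgCtrl and 5.50, 5.59 and 5.44 in PRMT1-KO. DMSO alone was low, and the other 3 groups overlapped. Gene spans are from GENCODE v44 on GRCh38. On the opposite strand, *JUNB* overlaps *HOOK2* (4.72 to 6.45 TPM as group means), *FOSB* overlaps *ERCC1* (33.0 to 38.5 TPM), *FOSL2* overlaps *FOSL2-AS1* and *IER2* overlaps 2 genes without a symbol; whether the counting used strand is not given in the sources used here, so reads from such a pair may be shared.

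MS023 was compared with DMSO to ask how the genes respond to inhibition of type I PRMTs. *FOS*, *JUNB*, *JUND* and *IER2* rose, *JUN* rose by less than the fold threshold, and none of the 9 tested members fell. The rise of *FOS* was 0.99 ± 0.10 (SE, n = 3 against 3, limma adjusted p = 7.7e-04), from 1.16 to 3.28 TPM, or 2.83 times. *JUNB* rose by 0.74 ± 0.07 (limma adjusted p = 5.3e-04), from 56.5 to 95.1 TPM, or 1.68 times. *JUND* rose by 0.71 ± 0.09 (limma adjusted p = 0.0017), from 44.1 to 72.7 TPM, and *IER2* rose by 0.70 ± 0.10 (limma adjusted p = 0.0024), from 28.7 to 47.1 TPM. These differences are of log2(TPM+1), which understates the change of a low gene such as *FOS*. A gene was tested where its mean was above 1 in either group, and called where the adjusted p was under 0.05 and the difference above 0.48 in size. By that rule 4 of the 9 tested members were called, all higher; of all 12903 genes tested 30.9% were called, 11.6% higher and 19.3% lower. By the adjusted p alone 5 of 9 passed, against 48.8% of all genes, and 6 of 9 had an unadjusted p under 0.05, against 56.5%.

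*JUN* differed by 0.34 (95% interval 0.09 to 0.59, limma adjusted p = 0.034), below the fold threshold, and was called after quantile normalization (0.50). *FOSL1* differed by 0.30 (interval 0.05 to 0.55, adjusted p = 0.051) and *ATF3* by 0.25 (interval -0.31 to 0.81, adjusted p = 0.39). *EGR1* differed by 0.01 (interval -0.14 to 0.16, limma adjusted p = 0.86), the narrowest interval of the 9, so a change of the size seen in *FOS* lies outside it. *FOSL2*, at 0.25 (interval -0.02 to 0.51), passed the filter only through its mean of 1.09 with MS023. *FOSB* was not tested; it was at 0.715 TPM in DMSO and 0.278 TPM with MS023, lower in every MS023 sample. The two-sided exact permutation test of 3 against 3 cannot go below p = 0.1, and gave that value for *FOS*, *FOSB*, *FOSL1*, *JUN*, *JUNB*, *JUND* and *IER2*. For the tested genes of these, 6 of 9, the background is that 59.5% of all genes tested had groups that did not overlap. All genes tested had a median difference of -0.11, which became -0.0040 when samples were scaled by the median ratio, and the calls went from 1500 higher and 2486 lower to 1995 higher and 1885 lower. Relative to that scaling *FOS* was at 1.08, *JUNB* at 0.86, *JUND* at 0.83, *IER2* at 0.82, *JUN* at 0.46 and *EGR1* at 0.10, so the order of the members stayed and each lay further above 0.

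PRMT1-KO was compared with isgCtrl to ask whether loss of *PRMT1* itself moves the same genes. No member passed the threshold. *ATF3* and *EGR1* were lower by the most: *ATF3* was at 1.68 TPM in PRMT1-KO, 38.0% of the 4.43 TPM in isgCtrl, and *EGR1* was at 5.94 TPM, 73.2% of 8.12 TPM. Their log2 differences were -1.02 (95% interval -1.62 to -0.42, limma adjusted p = 0.12) and -0.40 (interval -0.55 to -0.24, limma adjusted p = 0.055). *JUND* was at -0.24 (interval -0.37 to -0.12, adjusted p = 0.099) and *JUN* at -0.32 (interval -0.59 to -0.05, adjusted p = 0.21). *JUN*, *JUNB*, *JUND*, *ATF3* and *EGR1* had all their PRMT1-KO samples below all their isgCtrl samples, and *FOSL1*, at 0.18 (adjusted p = 0.25), had them all above; 26.7% of all genes tested had groups that did not overlap.

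*JUNB* (-0.05, interval -0.16 to 0.06) and *IER2* (-0.05, interval -0.18 to 0.09) had intervals that leave out the size of their rise with MS023. *FOS* was at -0.03 (interval -0.36 to 0.31), a value whose sign turned with median-ratio scaling and without the first isgCtrl sample. By limma 0 of the 8 tested members were called, and 5 of 8 (*FOSL1*, *JUN*, *JUND*, *ATF3* and *EGR1*) had an unadjusted p under 0.05; of all 12285 genes tested 0.781% were called (0.415% higher and 0.366% lower), 1.28% had an adjusted p under 0.05 (0 of the 8 members) and 18.6% had an unadjusted p under 0.05. *FOSB* (0.390 TPM in isgCtrl, 0.495 TPM in PRMT1-KO) and *FOSL2* (0.454 and 0.492 TPM) were not tested, and their samples overlapped. With all 12 samples in 1 fit the adjusted p of *EGR1* was 0.0059, still under the fold threshold. Over the alternatives the lowest limma adjusted p of *JUND* was 0.037, with differences of -0.27 to -0.20, also under the fold threshold. Calls over all genes were 51 higher and 45 lower, or 65 higher and 27 lower after median-ratio scaling.

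**Figure D1:**
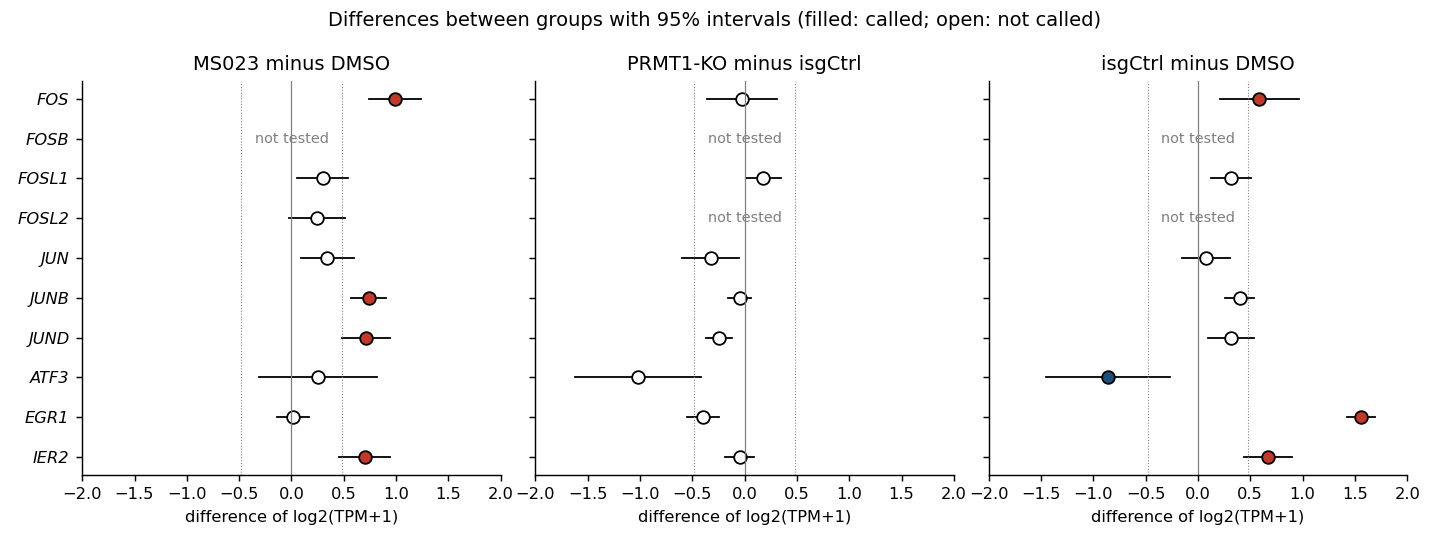
Difference of log2(TPM+1) (x axis) for each member (rows) in MS023 minus DMSO, PRMT1-KO minus isgCtrl and isgCtrl minus DMSO. Points are limma estimates with 95% intervals from 3 against 3 samples, filled where called (red higher, blue lower), and dotted lines mark the fold threshold of 0.48; *FOS*, *JUNB*, *JUND* and *IER2* are called in the left panel, none in the middle, and *EGR1* lies at 1.56 in the right panel.

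The 2 control groups were compared because the members start from different levels in them. *EGR1* was higher in isgCtrl by 1.56 ± 0.05 (interval 1.42 to 1.69, limma adjusted p = 7.2e-05), 8.12 TPM against 2.10 TPM or 3.86 times. *IER2* was higher by 0.67 (limma adjusted p = 0.0045) and *FOS* by 0.59 (adjusted p = 0.032), and *ATF3* was lower by 0.86 on the log2 scale (difference -0.86, limma adjusted p = 0.039). *JUNB* (0.40, adjusted p = 0.0051), *JUND* (0.32, adjusted p = 0.041) and *FOSL1* (0.31, adjusted p = 0.027) were higher by less than the fold threshold, and *JUN* was at 0.08 (interval -0.15 to 0.31). Thus 4 of 8 tested members were called, 3 higher and 1 lower, where 13.9% of 12661 genes were called, 7.23% higher and 6.7% lower (915 and 848 genes, or 671 and 942 after median-ratio scaling). Without the fold threshold 7 of 8 passed, against 34.5% of all genes; 7 of 8 had an unadjusted p under 0.05 (46.9% of all genes) and 7 of 8 had groups that did not overlap (51.7%). The call of *FOS* was lost without any 1 of the DMSO samples or without the first or the third isgCtrl sample (adjusted p up to 0.085), and that of *ATF3* without the first or second DMSO sample or without the first or the third isgCtrl sample (adjusted p up to 0.11). Cas9, the sort, the guide vector, puromycin selection, doxycycline and DMSO differed together between these groups and cannot be told apart.

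The effect of MS023 against its own control was then set against the effect of PRMT1-KO against its own, in 1 fit of all 12 samples. The drug effect was the higher for *ATF3* (1.27, limma adjusted p = 0.021), *FOS* (1.02, adjusted p = 0.0017), *JUND* (0.96, adjusted p = 8.7e-05), *JUNB* (0.79, adjusted p = 3.3e-05), *IER2* (0.75, adjusted p = 7.2e-04) and *JUN* (0.67, adjusted p = 0.0079). For *FOS*, *JUNB* and *IER2* the difference came with a rise under MS023 and a value between -0.05 and -0.03 in PRMT1-KO, whereas for *ATF3* and *JUN* neither effect was called and only their difference was. *EGR1* differed by 0.41 (limma adjusted p = 0.0030), below the fold threshold. *FOSL1* (0.12, interval -0.15 to 0.40) and *FOSL2* (0.22, interval -0.13 to 0.56) did not pass. Of the 9 tested members 6 were called, all with the drug effect higher, and of 13256 genes tested 24.4% were called, 9.69% with the drug effect higher and 14.7% with it lower (1284 and 1947 genes, or 1629 and 1590 after median-ratio scaling). By the adjusted p alone 7 of 9 passed, against 35.6% of all genes, and the same 7 had an unadjusted p under 0.05, against 45.1%. The call of *ATF3* was lost without the second isgCtrl sample (adjusted p = 0.051).

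Summed over each family, the JUN transcripts outnumbered the FOS transcripts by 16.1 to 20.7 times in the group means. *JUN*, *JUNB* and *JUND* together made 109 ± 8.27 TPM in DMSO (SD, n = 3), 178 ± 5.90 with MS023, 138 ± 2.09 in isgCtrl and 125 ± 2.14 in PRMT1-KO. The 3 MS023 sums lay above the DMSO sums and the 3 PRMT1-KO sums lay below the isgCtrl sums, with an exact permutation p of 0.1 for each, the smallest possible. The FOS family made 5.68 ± 0.49 TPM in DMSO, 8.64 ± 0.22 with MS023, 7.10 ± 0.57 in isgCtrl and 7.79 ± 0.09 in PRMT1-KO, where the last 2 overlapped (exact permutation p = 0.3) and did not after median-ratio scaling. The ratio of JUN to FOS transcripts was 19.3 in DMSO and 20.7 with MS023, which overlapped, and 19.6 in isgCtrl against 16.1 in PRMT1-KO, which did not (exact permutation p = 0.1).

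Within the JUN family *JUNB* gave 52.0%, 53.3%, 54.0% and 57.7% of the transcripts in DMSO, MS023, isgCtrl and PRMT1-KO, in that order. *JUND* gave 40.5%, 40.8%, 39.7% and 36.9%, and *JUN* gave 7.50%, 5.95%, 6.24% and 5.39%. The share of *JUN* was lower with MS023 than in DMSO without overlap even though its level was higher, since *JUNB* and *JUND* were higher by more. Within the FOS family the share of *FOS* was 20.5% in DMSO and 38.1% with MS023, without overlap, and 31.7% in isgCtrl and 27.9% in PRMT1-KO, with overlap. *FOSL1* held the largest mean share in each group, 53.0%, 45.6%, 56.4% and 59.4%. *FOSB* went from 12.6% in DMSO to 3.21% with MS023, and its DMSO mean rests on the third sample, at 21.8% against 7.44% and 8.46% in the others.

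**Figure D2:**
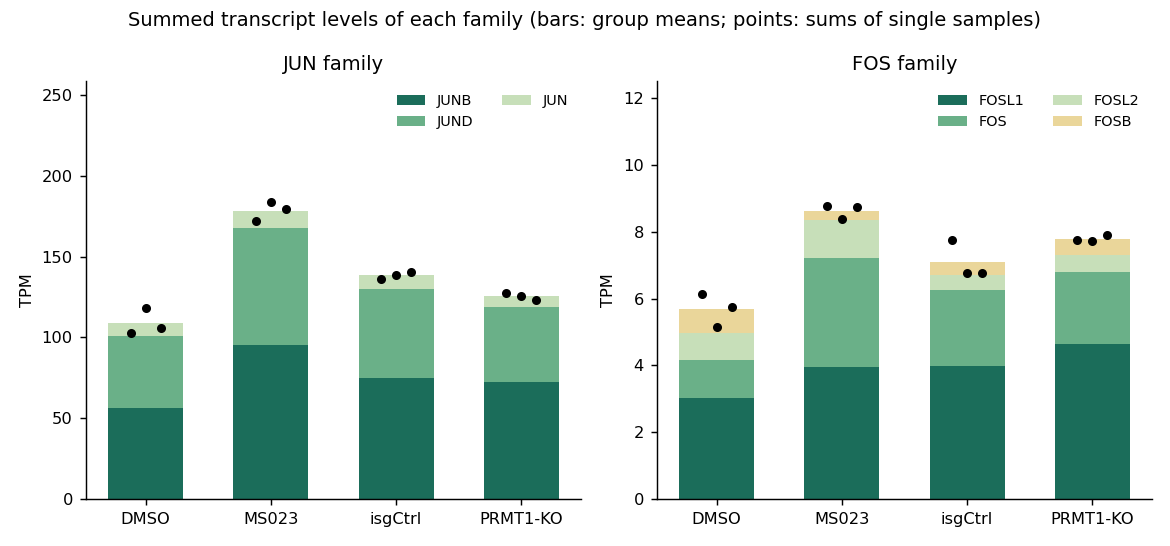
Summed TPM of the JUN family (left) and the FOS family (right) on axes that start at 0 and differ in scale. Stacked bars are group means by gene and points are the sums of the 3 samples of each group; the JUN sums are highest with MS023 at 172 to 184 TPM, and the FOS sums reach 8.38 to 8.78 TPM there against 5.17 to 6.15 TPM in DMSO.

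The other genes of the pathway were taken from 6 lists of 92 genes in all, drawn up with earlier results of these data known. Of these genes 74 were tested with MS023. There 21 rose and 6 fell, where 11.6% of all genes rose and 19.3% fell, with a median difference of 0.15 against -0.11 over all genes tested. Of 18 other immediate early genes tested, 8 rose and 1 fell (median 0.31): the largest were *SGK1*, a serum-induced kinase (2.17), *KLF6*, a zinc finger factor (1.50), and *GADD45B*, a stress gene (1.24), and *CCN1*, a secreted matrix protein that passed the filter only through DMSO, was the one that fell (-0.61). Of 9 other bZIP partners 3 rose and none fell (median -0.0021): *MAFF* (1.83) and *MAFG* (0.56), small MAF proteins without an activation domain, and *ATF4* (0.51), the effector of the integrated stress response. Of 9 AP-1 target genes tested 4 rose (median 0.77), *CD44*, a matrix receptor (1.61, 41.0 to 128 TPM), *CCND1*, a D-type cyclin (1.32), *PLAUR*, the urokinase receptor (1.19), which passed the filter only through MS023, and *HMOX1*, heme oxygenase (1.07).

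Among 23 upstream kinases and promoter factors 3 rose and 3 fell with MS023 (median 0.08). Of all genes tested 11.6% rose and 19.3% fell, so these counts lie near the background. *RPS6KA4*, a kinase that phosphorylates CREB and histone H3 (0.74), *MAP2K3*, a p38 kinase activator (0.60), and *ELK4*, an SRF partner (0.55), rose, while *MAP2K6*, another p38 kinase activator (-0.87), *CREB1*, which binds the cAMP response element (-0.66), and *RPS6KA3*, the kinase RSK2 (-0.57), fell. The call of *CREB1* was lost after quantile normalization and that of *RPS6KA3* after either scaling. Of 8 proteins that bind AU-rich elements, sequences that make immediate early RNAs short-lived, 3 rose and 2 fell (median -0.38). The background is again the 11.6% and 19.3% of all genes. The 3 were the related decay factors *ZFP36* (1.37, 12.1 to 33.1 TPM), *ZFP36L2* (0.79) and *ZFP36L1* (0.51); *TIA1*, a translational repressor (-0.77), and *HNRNPD*, the decay factor AUF1 (-0.50, lost after either scaling), fell. Of 7 cofactors and turnover factors of JUN, FOS and EGR1, limma called 0, with 4 at an unadjusted p under 0.05, a share near the 56.5% of all genes (median -0.37).

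In PRMT1-KO limma called 0 of the 69 tested genes of these lists, where 0.781% of all genes were called, and 13 had an unadjusted p under 0.05, a share near the 18.6% of all genes. The list medians ran from -0.10 to 0.05 against -0.04 over all genes. Between isgCtrl and DMSO 7 of 72 were higher and 3 lower, where 7.23% and 6.7% of all genes were (median 0.15 against 0.07 over all genes), so these counts lie near the background. *SGK1* (1.04), *TRIB1*, a pseudokinase (0.94), *MYC* (0.86), *ZFP36L1* (0.82), *NAB2*, a corepressor of EGR1 (0.80), *MAFK* (0.62) and *MRTFA*, an SRF coactivator (0.50, lost after either scaling), were higher in isgCtrl, and *CCND1* (-0.98), *KLF2* (-0.84) and *GADD45B* (-0.54) were lower; *CCND1* and *KLF2* passed the filter only through DMSO, where they were the higher. For the difference between the drug and the knockout effect 20 of 74 were called higher and 6 lower, where 9.69% and 14.7% of all genes were.

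The genes with the most similar pattern were sought for members whose 4 group means ranged over more than 1, *ATF3* (range 2.13) and *EGR1* (range 1.56), by the root mean square difference of the centred means over the 4 groups among 13247 genes. For *ATF3* they were *SIK1*, a salt-inducible kinase (0.19), *IFI27*, an interferon-induced gene (0.23), and the antisense RNA *SVIL-AS1* (0.24). *SIK1* had means of 2.05, 2.71, 1.17 and 0.51 in DMSO, MS023, isgCtrl and PRMT1-KO, but its isgCtrl samples ran from 0.02 to 1.79. For *EGR1* they were *HBA1*, alpha globin (0.052), the unnamed transcript *AC012254.2* (0.069) and *AMPD1*, AMP deaminase (0.11). *HBA1* was at 2.14 in DMSO, 2.15 with MS023, 3.70 in isgCtrl and 3.18 in PRMT1-KO. *AC012254.2* was listed at 0 in all DMSO samples and in at least 1 sample of each other group. *AMPD1* was far more abundant, at 4.28, 4.35, 5.68 and 5.59. With 4 group means, this is a description of shape only.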

How the data were processed

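RNA of 12 JJN3 samples was sequenced. The authors trimmed reads with Trimmomatic after FastQC, aligned them to hg38 with GENCODE V35 by STAR in its repeat-pass mode, and quantified with Salmon; versions are not given in the sources used here. The deposited values are gene-level log2(TPM+1), so the authors had already scaled each sample to a fixed total: read depth cannot be read from them, no count test applies, and genes that rise strongly lower the others.

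Groups and replicate numbers came from the labels. From the deposited log2 values, limma 3.58.1 (R 4.3.3) was fitted to each comparison's 6 samples, or all 12 for the difference of effects, on genes with a mean above 1 in any group compared, with Benjamini-Hochberg adjustment over all of them. A call needs an adjusted p under 0.05 and a difference above 0.48 in size, the thresholds in the methods of the study. For MS023 the paper reports far fewer genes than the 3986 called here, and for PRMT1-KO nearly as many as the 96 here. The reason was not tested, and the MS023 calls here are not the study's list. Intervals are 95%. The fits were tested on simulated data. Exact permutation tests are two-sided. Family sums, shares and figures used Python 3.11.15, numpy 2.4.6, pandas 2.3.3 and matplotlib 3.10.9. All members are named; from each pathway list, up to 3 called genes with the largest difference, and other called genes where a count is small, chosen after their values were seen. The members and lists were chosen with earlier results of these data known. Deviations of same-numbered samples correlated weakly or negatively, so no block was used. Alternatives changed the low-value filter, pseudocount, scaling, variance prior, replicate block, samples fitted, thresholds and replicates. Gene spans are from GENCODE v44, promoters from RefSeq GRCh38.p14.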

Additional observations from a re-analysis of the deposited data

Results flagged for a closer look

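The effect of MS023 and the effect of PRMT1-KO, each against its own control, differed for 7 of 9 tested members by an interaction term in limma over all 12 samples. This count is by an adjusted p under 0.05 alone, which 35.6% of all genes tested passed. *EGR1* lay below the fold threshold, so 6 were called, against 24.4% of all genes. The difference of the log2 effects was 1.02 for *FOS*, 0.79 for *JUNB*, 0.96 for *JUND*, 0.75 for *IER2*, 0.67 for *JUN*, 1.27 for *ATF3* and 0.41 for *EGR1*, each with the drug effect higher. MS023 acts on parental cells and inhibits other type I PRMTs as well. The knockout was made in Cas9 cells, where *PRMT1* RNA remained at 35.4%, a value that does not give the protein left. By western blot the paper describes efficient loss of PRMT1. Drug, target range, any residual PRMT1 and cell background cannot be told apart in these differences.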

How the results depend on the processing

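The direction and side of the threshold held in 135 of 142 member values under the alternatives for MS023 minus DMSO, 126 of 128 for PRMT1-KO minus isgCtrl, 108 of 127 for isgCtrl minus DMSO and 180 of 187 for the difference of effects. These counts include changed fold thresholds, which reuse the main fit. A threshold above 1 left 0 members called with MS023, 1 between the controls and 2 for the difference of effects. Between the controls 2 were called with no filter and 7 with no fold threshold; leaving out each replicate gave 2 to 4 there, and *FOS* and *ATF3* each lost their call under 7 alternatives. Signs turned for 3 values near 0: *EGR1* with MS023 (-0.017 to 0.036 with replicates left out), *JUN* between the controls (-0.0079 to 0.15), and *FOS* in PRMT1-KO (0.00095 with median-ratio scaling, -0.15 to 0.12 with replicates left out). The calls of *FOS*, *JUNB*, *JUND* and *IER2* with MS023 held under each alternative that tested them except the higher threshold. In the difference of effects *ATF3* lost its call with no filter (adjusted p = 0.055) and without the second isgCtrl sample. With 1 of the 6 samples left out, calls over all genes in PRMT1-KO fell from 96 to between 2 and 21. Beyond the construction of the thresholds the causes were not tested. TPM gives no depth, so the precision of the genes near 1 TPM (*FOSB*, *FOSL2*, *FOS*) is known only from 3 samples a group.

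With the replicate number as a block, 4 members were called with MS023, 0 in PRMT1-KO, 4 between the controls and 6 for the difference of effects, as without it; calls over all genes were 4018, 0, 1584 and 3215 against 3986, 96, 1763 and 3231. Same-numbered deviations correlated at 0.02 to 0.10 for MS023 and DMSO, at -0.14 to 0.07 for PRMT1-KO and isgCtrl, and at -0.23 to -0.03 for isgCtrl and DMSO. The means were 0.065, -0.047 and -0.10. For samples of different numbers they were -0.033, 0.024 and 0.051. Deviations from a group mean sum to 0, so these follow from the same-numbered means and are no separate comparison. The same-numbered correlations, weak or negative, show no clear pairing by number. Whether same-numbered samples shared a culture or preparation is not given in the sources used here. Of the list genes named, *CREB1* with MS023 (adjusted p = 0.061) and *GADD45B* between the controls (adjusted p = 0.091) lost their calls under the block.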
